A study of Mus musculus with 4 samples.

Results

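The cells described here are G2 and mitotic basal keratinocytes (G2/M basal cells) of embryonic mouse epidermis, and they were picked out by 5 genes of late cell division, Ccnb1, Cenpf, Ube2c, Plk1 and Aspm. A basal keratinocyte was a cell barcode with 2000 or more genes detected and mitochondrial molecules below 10%. It also had at least 50 molecules of the basal keratins Krt5, Krt14 and Krt15 per 10000 molecules of the cell (p10k), under 20 p10k of the suprabasal keratins Krt1 and Krt10, and under 2 p10k of each of 3 sets of hair follicle genes. A basal keratinocyte with 5 p10k or more summed over the 5 genes was a G2/M basal cell. This gave 1429 G2/M basal cells among 5508 basal keratinocytes, 11221 cells that passed the quality limits and 19789 barcodes. The remaining 4079 basal keratinocytes are called other basal cells. Because the 5 genes chose the cells, their levels are given as a description only.

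The study used single-cell RNA-seq to ask what the histone mark H3K9me3 does in the developing epidermis. Epcam+α6+ cells, meaning epithelial cells that also carry the α6 integrin of the basement membrane contact, were sorted from dorsal skin, 1 library per embryo and 2 embryos per genotype. Both genotypes carried Suv39h1 f/f, Suv39h2-/- and Setdb1 f/f alleles and both received tamoxifen, so loss of Suv39h2 was common to all 4 embryos. The Ctrl embryos were K14CreERT2- and the TKO embryos K14CreERT2+. The K14 promoter is active in basal keratinocytes, the recombinase acts only with tamoxifen, and the study describes its TKO epidermis as a mosaic of recombined and unrecombined cells. The labels and the study's text give the age as E16.5, which is used here, although the study's record of litters names E15.5 for a litter of this assay. Values of the 4 libraries are listed in the order Ctrl replicate 1, Ctrl replicate 2, TKO replicate 1 and TKO replicate 2.

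A dividing basal keratinocyte first copies its DNA in S phase, then passes through G2, in which cyclin B and CDK1 accumulate, and then through mitosis, in which condensin packs the chromosomes, the spindle attaches to kinetochores and the anaphase-promoting complex (APC/C) ends the process. Most genes needed for these late steps are switched on together in G2 by the MuvB, B-MYB and FOXM1 factors, which act through a promoter element called CHR and through CCAAT boxes bound by NF-Y. The tumour suppressor p53 opposes division through targets such as Cdkn1a, an inhibitor of cyclin-dependent kinases (CDKs). In embryonic epidermis the division of basal cells supplies both new basal cells and the layers above.

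The promoters of 2 of the 5 genes are printed because they carry the CCAAT box in a pair, an arrangement known from promoters of G2 genes. Aspm encodes a spindle pole protein and Cenpf a large protein of the kinetochore. Each sequence is the 250 bases before the start of the representative transcript, read from GRCm39 with the GENCODE vM39 annotation and written 5′ to 3′ on the strand of the gene, with CCAAT and its reverse complement ATTGG in capitals. Aspm lies on the plus strand (chr1:139382236-139382485) and Cenpf on the minus strand (chr1:189420313-189420562).
Aspm: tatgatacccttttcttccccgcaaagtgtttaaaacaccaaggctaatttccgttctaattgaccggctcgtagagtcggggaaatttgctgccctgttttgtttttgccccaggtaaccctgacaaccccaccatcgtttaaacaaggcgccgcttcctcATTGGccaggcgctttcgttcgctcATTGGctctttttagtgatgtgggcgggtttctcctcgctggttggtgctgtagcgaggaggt
Cenpf: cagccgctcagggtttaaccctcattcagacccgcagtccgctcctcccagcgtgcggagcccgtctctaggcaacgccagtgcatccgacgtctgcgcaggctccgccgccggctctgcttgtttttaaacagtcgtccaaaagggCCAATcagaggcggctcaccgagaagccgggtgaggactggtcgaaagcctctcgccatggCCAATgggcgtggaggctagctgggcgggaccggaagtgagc
Both motifs were searched on either strand, with overlapping matches counted. The Ube2c window held 6 CCAAT matches, some of them overlapping, and the Ccnb1 and Plk1 windows held 0. At least 2 CCAAT matches occurred in 3 of the 5 windows and in 10.78% of 21770 windows of protein-coding genes. The CHR letters TTTGAA occurred in 0 of the 5 windows and in 15.57% of all windows. Among 15 other G2 and mitotic genes used below to check the cells, 7 windows held TTTGAA and 7 held CCAAT, against 36.5% of all windows for CCAAT.

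G2/M basal cells had more UMIs (unique molecules) than other basal cells, and TKO cells had more than Ctrl cells. There were 351, 374, 380 and 324 G2/M basal cells in the 4 libraries, with 10066963, 9117429, 16071421 and 12395436 UMIs in all. The median G2/M basal cell had 27552, 24205, 39122.5 and 37043 UMIs, which was 1.35, 1.47, 1.41 and 1.47 times the median of other basal cells of the same library. The 2 TKO libraries lay above both Ctrl libraries in this depth, so shares of cells are also given with every cell thinned to 5000 UMIs. The median sum over the 5 genes was 14.3, 13.5, 14.9 and 14.3 p10k. Just inside the cutoff the lowest members had 5.04, 5.04, 5.03 and 5.02 p10k, and just outside it the highest other basal cells had 4.92, 4.99, 4.96 and 4.97 p10k. Between 31 and 36 members per library lay within 1 p10k above the cutoff, and 29 to 52 other basal cells lay within 1 p10k below it. Barcodes shared by a pair of libraries numbered 2 to 12, and 0 of them belonged to members in both. Doublets were not removed, and 16, 24, 10 and 9 members were among the cells with the highest doublet scores.

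The name of the cells was checked on 15 G2 and mitotic genes that the rule did not use, such as Ccnb2, Cdk1, Top2a and Cdc20. Their summed level was 15 p10k or more in 96.3%, 98.4%, 98.4% and 98.8% of G2/M basal cells. The same level was reached by 12%, 10.5%, 21.8% and 19.8% of other basal cells. The median sum was 40.5, 39.9, 36.1 and 36.8 p10k in G2/M basal cells and 2.66, 2.39, 6.20 and 4.31 p10k in other basal cells. A sum over DNA replication genes ran the other way, with medians of 12.3, 12.6, 18.5 and 16.7 p10k in G2/M basal cells and 21.9, 17.4, 30.6 and 26.8 p10k in other basal cells. The labelled state therefore held in each library, and TKO libraries carried more of the replication transcripts on both sides of the cutoff. Of the other basal cells, 627 of 1171, 879 of 1473, 165 of 697 and 249 of 738 had 0 UMIs of the 5 genes. Other basal cells as a whole had a median of 20393, 16515, 27705 and 25212 UMIs, and the counts of cells at 0 were not matched for depth.

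Markers of most other cell types were low, and those of fibroblasts were not. Merkel cell markers summed to 20.1, 18.9, 15.4 and 13.3 UMIs per 1000000 UMIs of the summed cells (CPM), and Atoh1, which defines Merkel cells, was at 0 in all 4 libraries. Of that list Krt8, a keratin of simple epithelia, was called lower in TKO, on 11, 12, 0 and 1 UMIs (log2 fold change −4.73, edgeR adjusted p = 0.0289). Its range was −6.84 to −3.70 when 1 library was left out, the call was lost without TKO replicate 1, and 90.9% and 91.7% of its Ctrl UMIs came from 5 members. Immune markers summed to 23.6, 3.73, 10.2 and 35.8 CPM and melanocyte markers to 25, 5.05, 33.4 and 9.92 CPM. The groups overlapped in their most abundant genes, with 83, 7, 14 and 138 UMIs for Lyz2 and 76, 5, 45 and 132 for Fcer1g of immune cells, and 81, 28, 109 and 81 for Mitf and 70, 7, 168 and 10 for Dct of melanocytes. Endothelial markers stayed between 2.48 and 5.85 CPM, from 24, 24, 80 and 24 UMIs of Pecam1 and 0, 0, 11 and 7 of Kdr. Of the sex-linked transcripts, the Y-linked Uty had 133, 110, 89.1 and 107 CPM and Eif2s3y 95.1, 92.6, 106 and 91.2 CPM, and 0 of the 4 tested were called by edgeR. Fibroblast markers summed to 1471, 1629, 1098 and 806 CPM, most of it from Dcn and Postn. Dcn had a UMI in 97.4%, 98.4%, 97.9% and 95.1% of members and Postn in 77.5%, 80.8%, 50% and 56.8%. Both fell in TKO, Dcn from 1323 and 1437 to 908 and 718 CPM and Postn from 140 and 182 to 47.5 and 81.0 CPM (log2 fold changes −0.77 and −1.33, edgeR adjusted p = 0.0149 and 0.026), and both calls were lost without Ctrl replicate 2. In other basal cells Dcn had 1270, 1350, 1013 and 836 CPM. Their part in the genotype differences below was not tested. In TKO replicate 1 a further 880 Col1a1 and 638 Col3a1 UMIs were counted, 94.3% and 92.9% of them in 5 members. Erythroid markers summed to 19.1, 20.1, 17.3 and 359 CPM, and 92.5% of the 2386 Hbb-bs UMIs of TKO replicate 2 came from 5 members. Leaving out the 4, 0, 7 and 4 members with 5 p10k or more of other cell types' markers (Dcn and Postn not counted) gave 1233 raised and 656 lowered genes in the comparison of the genotypes below.

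The targeted genes were examined first in G2/M basal cells. Setdb1, one of the H3K9 methyltransferases that the cross removes, had 61.8, 52.8, 39.6 and 37.8 CPM (chromosome 3, 95229399 to 95264541, GRCm39). Both TKO libraries were below both Ctrl libraries, with a log2 fold change of −0.57 (SE 0.123, edgeR adjusted p = 0.0328), a call lost in 7 of 14 alternative settings, among them the omission of any 1 library. Suv39h1, the other floxed methyltransferase, had 42.1, 39.0, 30.1 and 28.6 CPM and missed the threshold (log2 fold change −0.47, edgeR adjusted p = 0.0556). It passed in 4 of 14 alternative settings, with a log2 fold change of −0.57 to −0.39 over all of them and a lowest adjusted p of 0.0401. Suv39h2, deleted in all embryos, still had 18.4, 21.8, 26.1 and 19.4 CPM, with overlapping groups (log2 fold change 0.18, edgeR adjusted p = 0.598). The assay counts the 3′ ends of transcripts, so these counts do not show whether a deleted exon was present.

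A larger share of basal keratinocytes was in G2/M in both TKO libraries than in either Ctrl library. The share was 23.1%, 20.2%, 35.3% and 30.5%, that is 21.7% ± 1.99 in Ctrl and 32.9% ± 3.38 in TKO (SD, n = 2). The difference was 11.2 percentage points, or 1.52-fold. An exact permutation test (two-sided, n = 2) gave p = 0.3333, the smallest value that 2 against 2 libraries allow. At an equal depth of 5000 UMIs per cell the shares were 22.8%, 21.0%, 35.8% and 30.7%, and at 10000 UMIs they were 23.9%, 21.6%, 36.8% and 32.5%. With a cutoff of 10 p10k they were 15.4%, 12.6%, 25.5% and 21.4%, and with 3 p10k 29.0%, 25.8%, 43.9% and 37.9%. The 15 genes outside the rule, at 15 p10k or more, gave 31.5%, 28.3%, 48.8% and 43.9%. As a share of all cells that passed the quality limits, which include suprabasal and hair follicle cells, G2/M basal cells made up 11%, 11%, 17.6% and 13.1%. The 2 TKO libraries were above both Ctrl libraries under each of these definitions. These shares count cells by their transcripts and do not measure how often cells divide. By staining of skin sections, the study reports reduced proliferation of TKO basal cells, with fewer of them in S phase. It also reports TKO cells that carry a basal and a suprabasal keratin together. The limit on Krt1 and Krt10 leaves out cells with more of these keratins, and its part in the shares was not tested.

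**Figure D1:**
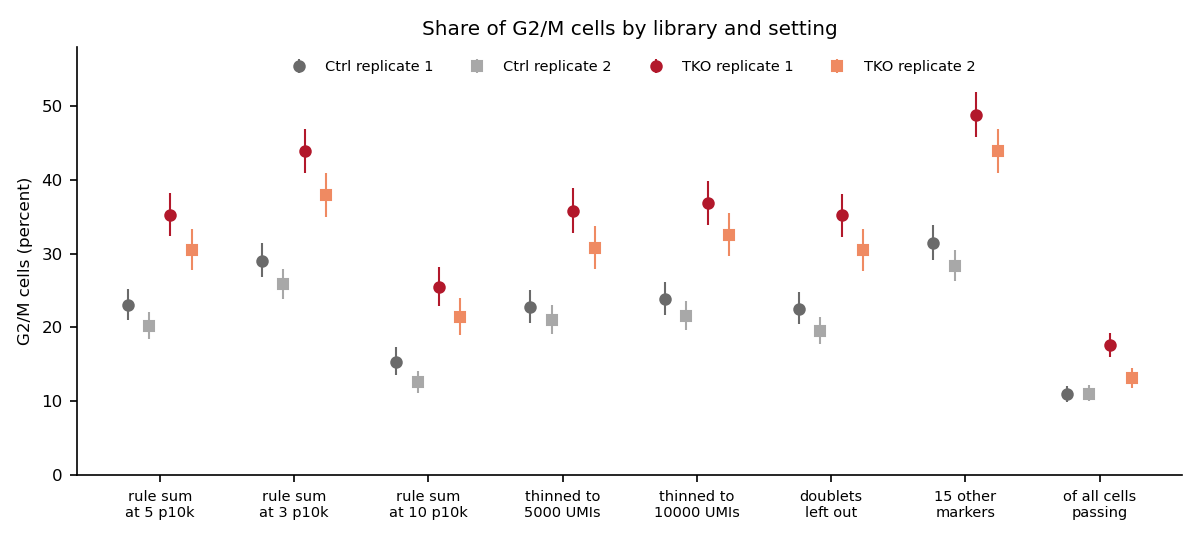
Share of G2/M cells in percent (vertical axis) for each library under 8 definitions (horizontal axis). Points are libraries and bars are 95% Clopper-Pearson intervals, which cover counting error only. TKO points, at 35.3% and 30.5% by the 5 p10k rule, lie above Ctrl points, at 23.1% and 20.2%.

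The members were ordered by the summed level of the 5 genes, without a measurement of cell cycle phase, and the replication genes shown stayed higher in TKO at each step. Members were split into bands of 5 to 10, 10 to 20 and 20 to 50 p10k, each holding 88 to 176 cells per library. Mitotic genes outside the rule increased from the first band to the last. Cdc20, the activator of the APC/C, went from 152, 157, 139 and 147 CPM at 5 to 10 p10k to 350, 477, 410 and 323 CPM at 20 to 50 p10k. Cenpa, the histone variant of centromeres, went from 262, 247, 201 and 214 CPM to 537, 594, 491 and 489 CPM. Replication genes fell along the same bands. Rrm2, a subunit of the enzyme that makes deoxynucleotides, had 73.4, 80.0, 120 and 118 CPM in the first band and 25.2, 13.2, 63.7 and 55.9 CPM in the last. Pcna, the sliding clamp of DNA polymerases, had 34.7, 36.2, 64.0 and 60.5 CPM in the last band. In that band both TKO libraries were also above both Ctrl libraries for Mcm5, at 18.6, 18.6, 38.4 and 30.7 CPM, and Mcm6, at 17.2, 14.9, 27.8 and 26.9 CPM, which are subunits of the replicative helicase. The bands were cut on the rule's own sum, so these levels are a description without a test.

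**Figure D2:**
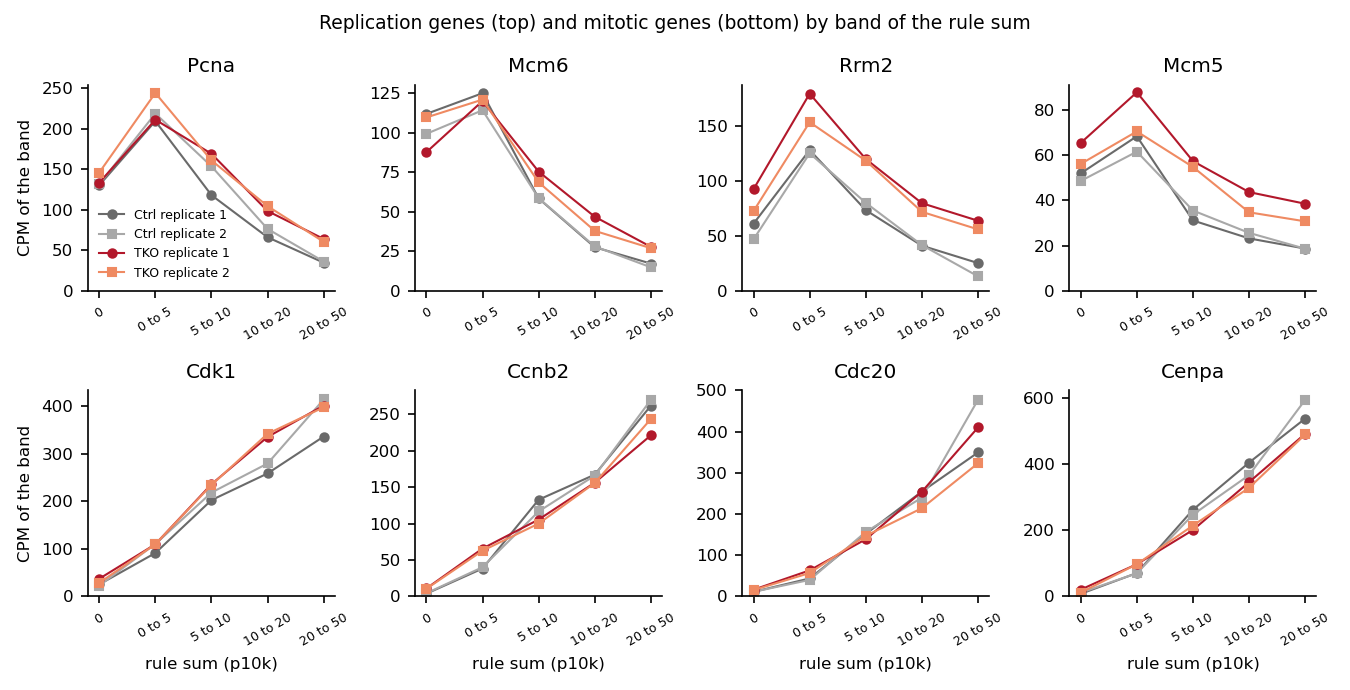
CPM (vertical axes) of 4 replication genes (top) and 4 mitotic genes (bottom) in basal keratinocytes banded by the summed level of the 5 genes in p10k (horizontal axes). Each line is a library, and bands from 5 p10k upward are G2/M basal cells. In the 20 to 50 p10k band Rrm2 had 25.2 and 13.2 CPM in Ctrl and 63.7 and 55.9 CPM in TKO.

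The 5 genes did not shift together between genotypes. Aspm had 158, 125, 70.4 and 88.4 CPM and Cenpf 765, 617, 466 and 479 CPM, lower in both TKO libraries than in both Ctrl libraries. Ube2c, which encodes a ubiquitin-conjugating enzyme of the APC/C, had 576, 690, 729 and 731 CPM, and Plk1, a mitotic kinase, had 82.4, 69.9, 95.8 and 89.0 CPM, both higher in TKO. Ccnb1, cyclin B1, had 200, 204, 192 and 201 CPM, with overlapping groups. These 5 genes chose the cells, so nothing is read from the order of their levels.

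Across the transcriptome of G2/M basal cells, 1026 genes were raised and 524 lowered in TKO among 14624 tested. These calls used edgeR's quasi-likelihood test on the 4 library sums at a Benjamini-Hochberg adjusted p under 0.05, and made up 10.6% of genes tested, 7.02% raised and 3.58% lowered. The median log2 fold change over all genes was −0.02. Both Ctrl libraries had less than 1 CPM in 190 of the raised genes, and both TKO libraries had less than 1 CPM in 29 of the lowered ones. In other basal cells 1212 genes rose and 676 fell among 17197 tested (11% in either direction, 7.05% raised and 3.93% lowered). Without Ctrl replicate 1 the count was 344 raised and 193 lowered, without Ctrl replicate 2 it was 338 and 156, and at 5000 UMIs per cell it was 454 and 284.

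Targets of p53 moved upward where they were called. Of 20 targets tested, 9 rose and 0 fell, against 7.02% and 3.58% of all genes. Their median log2 fold change was 0.57 against −0.02 for all genes. The rise was not particular to G2/M basal cells. In other basal cells 12 of the 20 rose and 0 fell, against 7.05% and 3.93% of all genes there, with a median of 0.87. In the test of the difference described below, 1 of the 20 had a more negative effect in G2/M basal cells, against 0.954% of genes. Zmat3, an RNA-binding tumour suppressor, had 16.1, 15.5, 56.9 and 50.02 CPM (chromosome 3, 32388941 to 32420163). Both TKO libraries were more than 3 times either Ctrl library, with a log2 fold change of 1.76 (SE 0.132, edgeR adjusted p = 0.00135). Ccng1, cyclin G1, had 27.3, 25.2, 93.5 and 76.8 CPM (chromosome 11, 40639377 to 40646148), a log2 fold change of 1.69 (SE 0.132, edgeR adjusted p = 0.00159). Aen, a nuclease that acts in apoptosis, had 19.3, 19.5, 64.8 and 49.1 CPM (log2 fold change 1.55, edgeR adjusted p = 0.00345). Bax, a mitochondrial death effector, had 77.6, 91.9, 221 and 171 CPM (log2 fold change 1.20, edgeR adjusted p = 0.0069). In all 4 of these genes the groups were well apart. The other called targets were Eda2r, Plk2, Trp53inp1, Phlda3 and Cdkn1a, with log2 fold changes of 2.39, 1.65, 0.85, 0.65 and 1.64. Not all targets moved this way. Mdm2, the p53 ubiquitin ligase, had 46.3, 54.5, 68.0 and 63.9 CPM (log2 fold change 0.38, edgeR adjusted p = 0.103). Perp, a desmosomal protein and the most abundant target, had 964, 914, 612 and 757 CPM (log2 fold change −0.46, edgeR adjusted p = 0.0752), and Btg2, a brake on proliferation, was highest in Ctrl replicate 2, at 128, 502, 172 and 148 CPM. Between 7 and 11 targets rose and 0 to 2 fell in each alternative setting.

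Genes of DNA damage signalling and repair gave no calls, against 10.6% of all genes called in either direction, and nothing about the group is read from a list of this size. Of 22 tested, 0 passed by edgeR or by DESeq2. An unadjusted p under 0.05 was found in 2 by edgeR and 1 by DESeq2, against 4081 and 3226 of all 14624 genes. Their median log2 fold change was −0.02. H2ax, the histone variant phosphorylated at DNA breaks, had 471, 546, 527 and 488 CPM. Topbp1, which activates the ATR kinase, had 129, 114, 133 and 136 CPM. The groups overlapped in H2ax and lay close in Topbp1 (log2 fold changes −0.01 and 0.15).

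CDK inhibitors changed in opposite directions. Of 7 genes, Cdkn2a and Cdkn2b were near 0 in all libraries and were not tested, 1 rose and 3 fell, against 7.02% and 3.58% of all genes. Cdkn1a (p21), the p53 target that inhibits CDKs, had 18.7, 43.5, 110 and 83.7 CPM (chromosome 17, 29309936 to 29319701). The TKO libraries were above both Ctrl libraries, but the Ctrl libraries differed widely, and the log2 fold change of 1.64 (SE 0.352, edgeR adjusted p = 0.0321) ranged from 1.13 to 2.38 when 1 library was left out. The call was lost with DESeq2 (adjusted p = 0.059) and without TKO replicate 1. Cdkn2c (p18), an inhibitor of CDK4 and CDK6, had 22.5, 25.6, 4.36 and 5.41 CPM (chromosome 4, 109517957 to 109524386). It fell to a low level in both TKO libraries, with a log2 fold change of −2.31 (SE 0.204, edgeR adjusted p = 0.00221). Cdkn2d (p19), of the same family, had 73.2, 90.4, 41.4 and 38.4 CPM (chromosome 9, 21199700 to 21202727), a log2 fold change of −1.04 (SE 0.14, edgeR adjusted p = 0.00771). Cdkn1b (p27) had 77.2, 74.6, 52.4 and 51.4 CPM (log2 fold change −0.55, edgeR adjusted p = 0.0225), a call lost without either Ctrl library, with the replicate number as a block and at 5000 UMIs per cell. Cdkn2c and Cdkn2d were called in all 14 alternative settings. Cdkn1c (p57) had 135, 121, 142 and 60.3 CPM, with TKO libraries on either side of Ctrl.

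**Figure D3:**
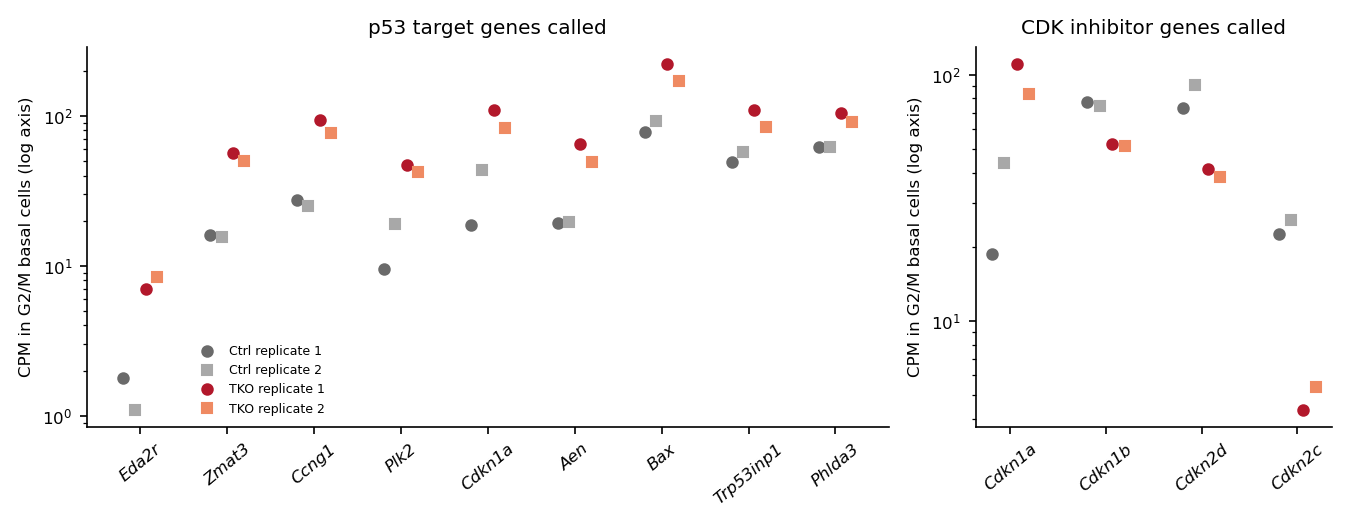
CPM in G2/M basal cells (vertical axes, logarithmic) of the called p53 targets (left) and CDK inhibitors (right), one point per library. Cdkn2c had 22.5 and 25.6 CPM in Ctrl and 4.36 and 5.41 CPM in TKO, while Zmat3 had 16.1 and 15.5 CPM in Ctrl and 56.9 and 50.02 CPM in TKO.

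DNA replication genes moved upward where they were called. Of 37 tested, 10 rose and 0 fell against 7.02% and 3.58% of all genes, and their median log2 fold change was 0.34. Both TKO libraries were above both Ctrl libraries in 28 of the 37, compared with 29.6% of all genes. Rrm2 had 44.9, 46.1, 86.4 and 79.8 CPM over all members (chromosome 12, 24757811 to 24764145), with a log2 fold change of 0.86 (SE 0.109, edgeR adjusted p = 0.00623) and a call in all 14 alternative settings. Mcm3, a helicase subunit, had 25.7, 30.2, 64.5 and 50.1 CPM (log2 fold change 1.03, edgeR adjusted p = 0.0124). Rfc3 and Rfc1, subunits of the factor that loads the PCNA clamp, had 54.8, 58.2, 97.7 and 86.3 CPM and 56.2, 54.2, 87.0 and 80.8 CPM. The groups did not overlap in any of these genes. Tyms, Mcm2, Mcm5, Cdt1, Rfc4 and Chaf1b were also raised, with log2 fold changes of 0.44 to 1.09. The number raised was 3 at 5000 UMIs per cell, 1 without Ctrl replicate 1, 2 without Ctrl replicate 2 and 5 without TKO replicate 1, with 0 lowered in each.

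Few genes of the machinery of mitosis were called, most of them as lower. Of 25 spindle assembly and motor genes, 0 rose and 2 fell, against 7.02% and 3.58% of all genes, with a median log2 fold change of −0.32, and both TKO libraries were below both Ctrl libraries in 21 of the 25, compared with 28.4% of all genes. Nusap1, which bundles spindle microtubules, had 258, 288, 182 and 196 CPM (log2 fold change −0.53, edgeR adjusted p = 0.0348). Kif14, a kinesin of the midbody, had 62.6, 51.5, 31.8 and 39.7 CPM (log2 fold change −0.68, edgeR adjusted p = 0.0448). In both genes the TKO libraries were lower without overlap. In other basal cells the same 25 genes went the other way, with a median log2 fold change of 0.33. There both TKO libraries were above both Ctrl libraries in 20 of the 25 and below them in 2. The cells were divided by a cutoff on mitotic genes. Its part in the values of the 25 genes in either kind of cell was not tested.

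Other mitotic groups gave 1 or 2 calls each, against 7.02% of all genes raised and 3.58% lowered, and nothing about a group is read from counts of this size. Of 32 centromere and kinetochore genes 2 fell, namely Cenpe, a kinetochore motor, with 324, 281, 213 and 223 CPM, and Cenpt, a linker between centromere and kinetochore, with 26.5, 26.7, 18.5 and 15.7 CPM (log2 fold changes −0.47 and −0.64). Of 10 condensin and compaction genes 1 fell, Ncapd3 (log2 fold change −0.45), and of 14 cohesin and shugoshin genes 1 fell, Pds5b, a cohesin regulator (−0.49). Of 14 cytokinesis genes 2 fell, Cit and Racgap1 (log2 fold changes −0.55 and −0.43). Of 16 genes of the spindle checkpoint and chromosomal passengers 1 rose, Trip13, which disassembles checkpoint complexes, with 38.8, 38.6, 54.9 and 53.3 CPM (log2 fold change 0.48, edgeR adjusted p = 0.0406). Of 20 APC/C and mitotic exit genes 1 rose, Anapc15, an APC/C subunit, with 25.6, 23.1, 38.8 and 40.1 CPM (log2 fold change 0.69, edgeR adjusted p = 0.0216). All the calls among mitotic genes in this and the preceding paragraph were lost when either Ctrl library was left out. Their fold changes kept their direction, for example 0.47 to 0.49 for Trip13, −0.455 to −0.402 for Racgap1 and −0.86 to −0.51 for Kif14 (log2) over the omission of each library.

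Genes that start mitosis or control the G2 programme gave few calls. Of 18 mitotic entry genes 1 rose and 2 fell, against 7.02% and 3.58% of all genes, and nothing about the group is read from 3 calls. Gmnn, geminin, which blocks a second round of replication, had 129, 144, 238 and 198 CPM (log2 fold change 0.67, edgeR adjusted p = 0.0226). Cdc25b, a phosphatase that activates CDK1, had 43.1, 38.8, 23.0 and 24.8 CPM (log2 fold change −0.78, edgeR adjusted p = 0.0164), and Bora, a cofactor in the activation of Plk1, had 95.9, 95.3, 65.4 and 69.5 CPM (log2 fold change −0.51, edgeR adjusted p = 0.0314). The groups did not overlap in any of the 3, and the 3 calls were lost when either Ctrl library was left out. Among 10 genes of the MuvB and FOXM1 factors only E2f8, a repressor of E2F targets, was called, against 10.6% of all genes. It had 48.0, 52.2, 31.7 and 34.0 CPM (log2 fold change −0.61, edgeR adjusted p = 0.0292, lost when any library but TKO replicate 2 was left out). Of the 15 genes used to check the cells, 0 rose and 2 fell, Nusap1 and Cenpe, against 7.02% and 3.58% of all genes. Their median log2 fold change over the 15 was −0.23, and the part of the cutoff on mitotic genes in this value was not tested.

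The orientation of the spindle decides whether a basal cell divides within its layer or into the layer above. Of 16 genes in this list 15 were tested, since Insc was near 0, and 1 rose and 1 fell, against 7.02% and 3.58% of all genes. Gpsm2 (LGN), which anchors the spindle to the cell cortex, had 149, 137, 95.9 and 99.3 CPM (chromosome 3, 108583861 to 108629640), with both TKO libraries lower and a log2 fold change of −0.56 (SE 0.108, edgeR adjusted p = 0.0238). Afdn (afadin), a junction protein, had 129, 117, 184 and 163 CPM, with both TKO libraries higher (log2 fold change 0.49, edgeR adjusted p = 0.0375). Neither gene was called at 5000 UMIs per cell or when any library but TKO replicate 2 was left out.

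**Figure D4:**
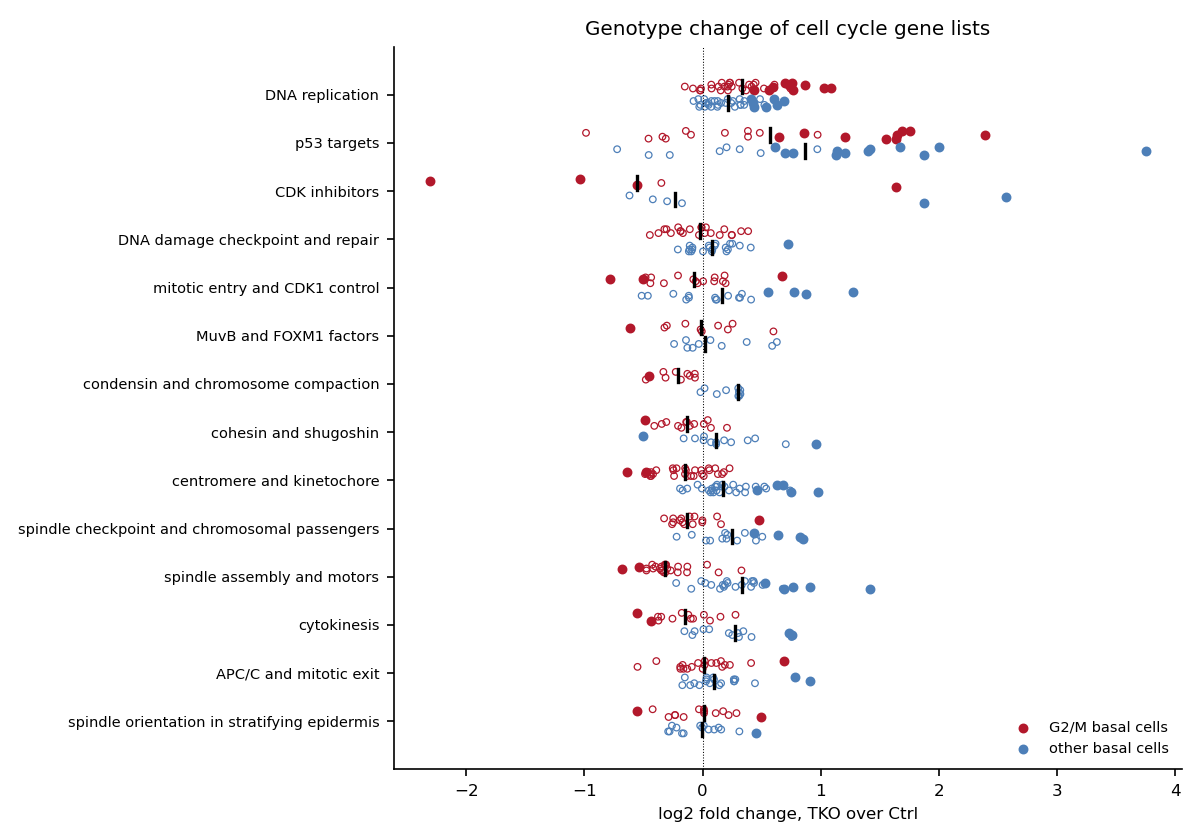
Log2 fold change of TKO over Ctrl (horizontal axis) for the genes of 14 cell cycle lists (vertical axis), in G2/M basal cells (red, upper) and other basal cells (blue, lower). Each circle is a gene, filled where the edgeR adjusted p was under 0.05, and black bars are medians. In G2/M basal cells the median was 0.34 for DNA replication, 0.57 for p53 targets and −0.32 for spindle assembly and motors.

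Genes outside the cell cycle were examined by the same lists. Among 18 genes of H3K9 methylation and HP1, 1 rose and 1 fell, the latter being Setdb1, against 7.02% and 3.58% of all genes. Atf7ip, which binds and stabilises SETDB1, had 110, 78.3, 216 and 277 CPM, with both TKO libraries well above both Ctrl libraries (log2 fold change 1.39, SE 0.197, edgeR adjusted p = 0.00922). Of 14 genes for adhesion to the basement membrane 0 were called by edgeR, against 10.6% of all genes. DESeq2 called 2 as lowered, against 618 of all 14624 genes. An unadjusted p under 0.05 by edgeR was found in 5 of the 14, against 4081 of all 14624 genes. Nothing about the group is read from these counts. The most abundant of the 14 overlapped between genotypes, with 613, 476, 505 and 567 CPM for Dst (bullous pemphigoid antigen) and 474, 436, 387 and 499 CPM for Itga6 (α6 integrin). Of 16 early differentiation genes tested 0 rose and 3 fell, against 7.02% and 3.58% of all genes. Dsg1a, a desmosomal cadherin, had 36.9, 26.3, 5.29 and 13.9 CPM, Calm4, a calcium-binding protein of differentiating keratinocytes, had 110, 96.3, 21.1 and 51.1 CPM, and Klf4, a transcription factor of the barrier, had 268, 373, 206 and 195 CPM (log2 fold changes −1.74, −1.52 and −0.68, edgeR adjusted p = 0.0446, 0.0448 and 0.0476). When 1 library was left out Dsg1a ranged from −2.59 to −1.17, Calm4 from −2.31 to −1 and Klf4 from −0.91 to −0.42. The Dsg1a and Calm4 calls were lost with DESeq2 and when either Ctrl library was left out, and that of Klf4 without Ctrl replicate 2 or without either TKO library. The median over this list was 0.13, of opposite sign to its calls, and turned to −0.42 at 5000 UMIs per cell, −0.15 without Ctrl replicate 2, −0.11 without TKO replicate 2, −0.03 at a cutoff of 10 p10k and −0.02 with doublets left out.

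Of 9 regulators of epidermal development that the study names, a list chosen on these embryos and so not independent of them, 1 rose and 2 fell, against 7.02% and 3.58% of all genes. Id1, an inhibitor of differentiation factors, had 54.8, 89.9, 187 and 159 CPM (log2 fold change 1.25, SE 0.228, edgeR adjusted p = 0.0202). Sox9, a factor of hair follicle progenitors, had 24.9, 24.3, 16.1 and 14.3 CPM (log2 fold change −0.70, edgeR adjusted p = 0.0305), and Klf4 was the other. The Sox9 call was lost without either Ctrl library and without TKO replicate 2. Trp63, the master regulator of the basal layer, had 787, 688, 413 and 555 CPM and missed the threshold (log2 fold change −0.61, edgeR adjusted p = 0.0623). Of 20 stress and early response genes 1 rose and 0 fell, against 7.02% and 3.58% of all genes. The 1 was the chaperone Hspa8 with 607, 498, 857 and 773 CPM (log2 fold change 0.56, not called without Ctrl replicate 2 or without TKO replicate 1). The median of the 20 was −0.49, and −1.05 without Ctrl replicate 1. With no expression filter 4 of the 20 rose and 12 fell, against 1932 and 1194 of all 27978 genes. Early response genes were highest in Ctrl replicate 2, for example Fos with 284, 1163, 440 and 262 CPM. Their part in the genotype differences was not tested.

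The most strongly raised genes were at 0 UMIs in G2/M basal cells of both Ctrl libraries, with 1 exception, and few of them encode proteins. Bounds below compare the TKO mean with 3 UMIs over the Ctrl libraries together. The long noncoding RNA 1700030N03Rik had 554 and 278 UMIs in TKO, at least 182-fold higher. Its UMIs came from 39 and 21 members, with 67.0% and 89.2% of them in the 5 highest members, and it overlaps Gm25431 on the same strand. Tnxa, a pseudogene of tenascin X, had 331 and 246 UMIs in TKO (at least 129-fold higher), and Npffr1, a neuropeptide receptor, had 321 and 194 (at least 114-fold higher). D7Ertd128e, Gm54771, Gm42863, Gm42752, Gm8184, ENSMUSG00000121382, Gm47887 and Gm13284 were at least 31.2- to 70.4-fold higher. Gm54771 had 60 and 182 UMIs in TKO, or 3.73 and 14.7 CPM, so most of its bound of 58.9-fold comes from TKO replicate 2, and 48.3% and 73.6% of these UMIs came from 5 members. The exception, ENSMUSG00000120763, had 496 and 720 UMIs in TKO against 0 and 1.

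The most strongly lowered genes kept low but mostly measurable counts in TKO. Adamts9, a matrix protease, had 29.2, 26.9, 1.18 and 0.242 CPM (chromosome 6, 92749680 to 92920520), with a log2 fold change of −5.20 (SE 0.424, edgeR adjusted p = 0.00169) that ranged from −6.77 to −4.57 when 1 library was left out. TKO replicate 2 held 3 Adamts9 UMIs. Cdh4, a cadherin, had 41.5, 25.4, 4.79 and 3.63 CPM (log2 fold change −2.98), and Rerg, a small GTPase-like growth inhibitor, had 45.6, 55.2, 6.78 and 6.62 CPM (−2.91, SE 0.166, edgeR adjusted p = 0.000877). All 3 were far lower in both TKO libraries. 9530026P05Rik, Syndig1, Slitrk6, Sox5os4, Gm47775, Fam167a, Ildr2 and Nrg3 fell by 2.97 to 3.33 on the log2 scale. When 1 library was left out these 8 ranged from −4.03 to −2.44, with Gm47775 at −4.03 to −2.54 and Nrg3 at −3.97 to −2.44. S100a9, an antimicrobial protein, had 2.58, 12.6, 0.809 and 0.403 CPM, and 79.1% of its 115 UMIs in Ctrl replicate 2 came from 5 members. Its log2 fold change of −3.60 ranged from −4.34 to −2.05 when 1 library was left out, and the call was lost without Ctrl replicate 2 and without either TKO library. The calls of Slitrk6 and Nrg3 were lost without Ctrl replicate 1, that of Nrg3 also at a cutoff of 10 p10k and that of Fam167a at 5000 UMIs per cell.

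To ask where the genotype effect in G2/M basal cells differed from that in other basal cells, both effects were fitted in 1 model with the library as a block. Of 17187 genes, 92 had a more positive and 164 a more negative effect in G2/M basal cells (1.49%, 0.535% and 0.954% of genes). The cells were divided by a cutoff on mitotic genes, and its part in the differences of other mitotic genes was not tested, so nothing is read from the 13 of 15 check genes and 16 of 25 spindle genes among the more negative. Psrc1, a microtubule-associated protein with the most negative difference, had 39.7, 39.6, 37.1 and 32.2 CPM in G2/M basal cells and 3.77, 4.42, 21.8 and 16.8 CPM in other basal cells. In other basal cells both TKO libraries were far above both Ctrl libraries. H2ax had overlapping groups in G2/M basal cells and higher levels in TKO among other basal cells, with 94.4, 95.5, 182 and 139 CPM there (difference −0.73).

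Genes of other kinds also differed. Cdkn2c had only 3.5, 4.11, 2.18 and 2.89 CPM in other basal cells, where it was also lower in both TKO libraries without being called, and the difference of log2 effects was −1.69 (SE 0.225, edgeR adjusted p = 0.00753), lost at 5000 UMIs per cell. Cdkn2d had 17.5, 21.9, 19.0 and 16.7 CPM there, and its difference was −0.88 (edgeR adjusted p = 0.00311). Rgs3, a regulator of G protein signalling, had 20.1, 19.7, 7.34 and 5.57 CPM in G2/M basal cells and 4.17, 4.15, 5.70 and 3.54 CPM in other basal cells (difference −1.75, SE 0.212, edgeR adjusted p = 0.00526). All 3 genes were higher in G2/M than in other basal cells of Ctrl, and the part of the cutoff in their differences was not tested. Of 37 replication genes, 4 had a more positive effect in G2/M basal cells, against 0.535% of all genes, namely Mcm3 (0.71), Rfc1 (0.56), Mcm2 (0.63) and Cdt1 (0.78). The summed level of replication genes was higher in other basal cells of each library, and the part of the cutoff in these 4 differences was not tested. Rfc1 had 111, 103, 118 and 106 CPM in other basal cells, with overlapping groups. Krt7, a keratin of simple epithelia, had 3.38, 4.06, 39.9 and 19.3 CPM in G2/M basal cells and 14, 21.5, 68.5 and 39.6 CPM in other basal cells, a difference of 1.37 (SE 0.183, edgeR adjusted p = 0.00753) found in all 8 alternative settings. Atf7ip and Zmat3 had almost the same effect in both kinds of cell, with differences of −0.00 and 0.08.

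The TKO epidermis is a mosaic, so G2/M basal cells were also divided by a transcript of 5 genes chosen because earlier results of these data had them almost only in TKO, namely Npffr1, Gm11884, Col28a1, 1700030N03Rik and Gm42653. At 5000 UMIs per cell, 0.929% and 0.840% of Ctrl and 67.8% and 58.8% of TKO G2/M basal cells had at least 1 such UMI. Cells without one can still have lost the enzymes, since a transcript is missed at this depth. In TKO replicate 1, 39.2% of basal keratinocytes with such a UMI (95% Clopper-Pearson interval 35.3 to 43.2) and 30.3% of those without (25.7 to 35.2) were in G2/M. In TKO replicate 2 the shares were 30.7% (27.0 to 34.6) and 30.8% (26.4 to 35.5). At 10000 UMIs per cell the shares were 37.7% and 34.6% in TKO replicate 1 and 33.5% and 30.4% in TKO replicate 2, that is 3.04 and 3.11 percentage points higher in cells with a UMI. The gap between the embryos at 5000 UMIs, 8.90 against −0.14 points, was thus not seen at the greater depth. Without thinning the differences were 5.38 and 2.63 points.

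Within the TKO G2/M basal cells, 4 p53 targets already called as raised had higher values in cells with such a UMI in both embryos. Some of their intervals overlapped. Atf7ip and Krt7, which are outside the p53 list, were also higher in these cells. Zmat3 had 18.0 and 17.9 CPM in the Ctrl libraries at this depth. In TKO replicate 1 it had 65.0 CPM in cells with a UMI (exact 95% Poisson interval 51.4 to 81.1) and 26.3 CPM in cells without (14.7 to 43.4), and in TKO replicate 2 it had 62.2 (47.0 to 80.8) and 30.2 CPM (18.2 to 47.1). Cdkn1a had 116 CPM (97.4 to 137) with and 59.6 CPM (41.3 to 83.4) without in TKO replicate 1, and 96.7 CPM (77.4 to 119) and 41.3 CPM (27.0 to 60.5) in TKO replicate 2, against 17.3 and 39.2 CPM in Ctrl. The intervals of Cdkn1a did not overlap in either embryo, and those of Zmat3 overlapped narrowly in TKO replicate 2. Ccng1 had 99.2 and 66.7 CPM with and without in TKO replicate 1 and 92.2 and 54.0 CPM in TKO replicate 2, with overlapping intervals in both. Bax had 238 CPM (211 to 267) and 161 CPM (130 to 198) in TKO replicate 1, and 166 CPM (140 to 194) and 144 CPM (116 to 177) in TKO replicate 2, where they overlapped. Atf7ip had 209 CPM (184 to 237) with and 123 CPM (95.7 to 155) without in TKO replicate 1, and 291 and 232 CPM in TKO replicate 2. Krt7 had 49.2 CPM (37.4 to 63.4) and 19.3 CPM (9.63 to 34.5), then 28.9 and 22.2 CPM. Summed over all 20 p53 targets, cells with a UMI had 2046 and 2116 CPM in the 2 TKO libraries. Those without had 1616 and 1762 CPM, against 1741 and 2142 CPM in Ctrl. Id1 had 180 and 193 CPM with and without in TKO replicate 1 and 159 and 171 CPM in TKO replicate 2, against 64.4 and 80.1 CPM in Ctrl. Cdkn2d had 40 and 49.1 CPM, then 44.4 and 38.1 CPM, against 65.0 and 88.5 CPM in Ctrl, and the intervals of both genes overlapped between the 2 kinds of cell. Setdb1, one of the targeted genes, had 32.5 CPM with (23.1 to 44.4) and 36.8 CPM without (22.8 to 56.3) in TKO replicate 1, and 40 CPM (28.0 to 55.4) and 36.5 CPM (23.1 to 54.8) in TKO replicate 2, against 55.7 and 58.8 CPM in Ctrl. Its intervals in cells with and without a UMI overlapped in both embryos. They rest on 39 and 21 Setdb1 UMIs in TKO replicate 1 and 36 and 23 in TKO replicate 2. Counts this small cannot show whether the split separated cells by the level of this targeted gene. The intervals cover counting error only, cells of 1 embryo are not replicates, and with 2 embryos these differences were not tested.

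**Figure D5:**
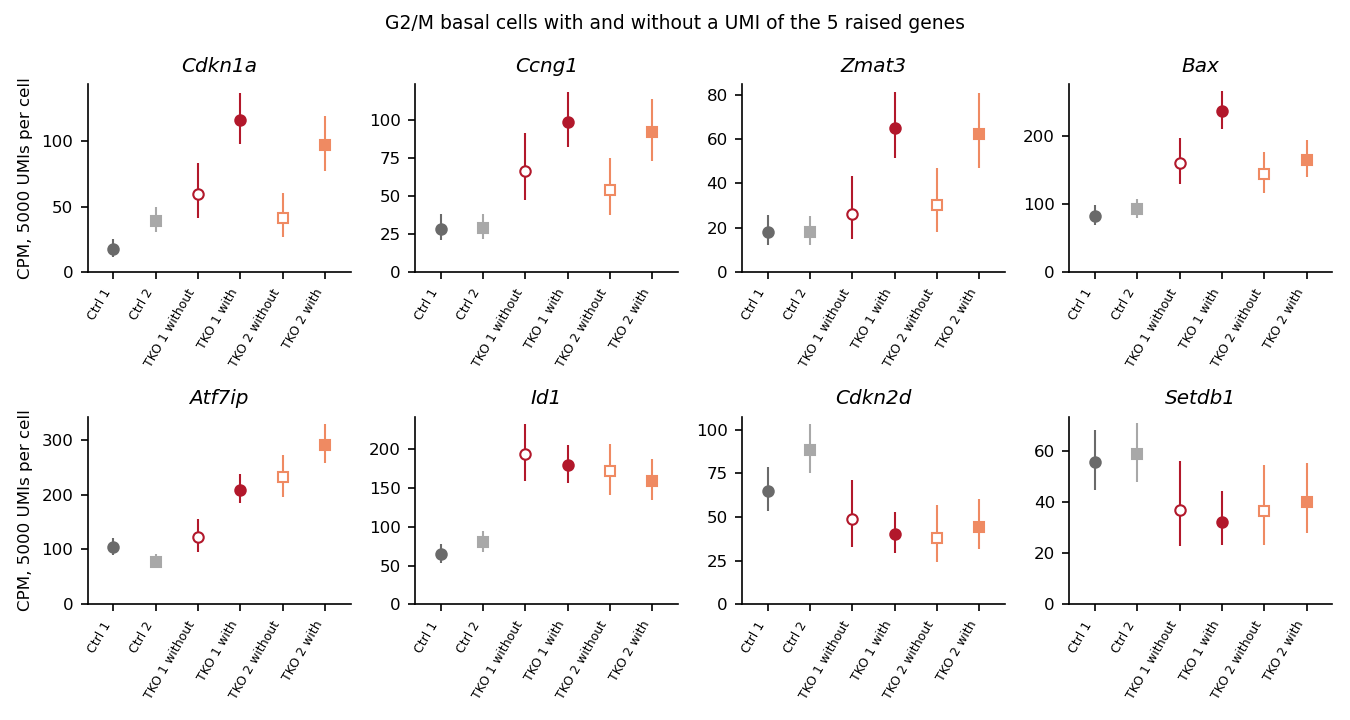
CPM of 8 genes at 5000 UMIs per cell (vertical axes) in G2/M basal cells of each Ctrl library and, for each TKO library, in cells without (open) and with (filled) a UMI of the 5 raised genes. Bars are exact 95% Poisson intervals for counting error. Zmat3 had 65.0 and 62.2 CPM in TKO cells with a UMI, 26.3 and 30.2 CPM in those without, and 18.0 and 17.9 CPM in Ctrl.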

How the data were processed

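Epcam+α6+ skin cells of 2 Ctrl and 2 TKO embryos were profiled with the 3′ v3 kit of 10x Genomics. The authors deposited 1 matrix per library of UMI counts, unnormalized, with genes against cells. Per the file headers, Cell Ranger 7.1.0 wrote them (the study's methods name another version) on GRCm39. Whether intronic reads were counted is not given in the sources used here. Libraries held 70749496 to 89655247 UMIs. PCR copies are collapsed by UMIs, so intervals cover counting error only.

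Counts were summed over G2/M basal cells and over other basal cells of each library. Sums were tested with edgeR 4.0.16 in R 4.3.3 (quasi-likelihood test, TMM factors, default expression filter, genotype as the only term), at an adjusted p under 0.05. The difference of effects was an interaction term with the library as a block. DESeq2 1.42.0 was an alternative. CPM are UMIs per 1000000 UMIs of the summed cells. Doublets were scored with Scrublet in scanpy 1.11.5 and left out only in an alternative, at 0.8% of cells per 1000 barcodes. Shares were compared by an exact permutation test. The test scripts were tested on simulated data. Each library is 1 embryo, so p-values measure the spread between 2 embryos per genotype. Positions are from GENCODE vM39. Genes named were, among called genes whose groups did not overlap and that had 20 or more UMIs in at least 2 libraries, the 12 with the largest change in each direction and the 6 in each direction of the interaction. The 3 targeted genes, the 5 rule genes and up to 4 called genes of each list (by smallest p, or the 2 most abundant where none was called) were named too. A few others were named after their values were seen, such as Mdm2, Perp, Btg2, Fos and the genes shown by band. The cells and all gene lists were chosen with earlier results of these data known. Single cells were not clustered here.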

Additional observations from a re-analysis of the deposited data

Results flagged for a closer look

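The effect of genotype differed between G2/M and other basal cells for 256 genes by the interaction test of edgeR (adjusted p under 0.05), and this difference of effects is what brought the genes below to attention. Values are the log2 effect in G2/M basal cells minus that in other basal cells.

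Differences toward a more positive effect in G2/M basal cells were seen for Itih5 (4.42), Col1a1 (3.94), Hmox1 (2.78), Meg3 (2.32), Krt7 (1.37) and Hoxc13 (1.37). When 1 library was left out these ranged from 3.71 to 8.07 for Itih5, 1.74 to 4.94 for Col1a1, 1.92 to 4.25 for Hmox1, 2 to 3 for Meg3 and 1.15 to 1.70 for Hoxc13. Calls were lost without Ctrl replicate 1 for Itih5, Col1a1, Meg3 and Hoxc13, without TKO replicate 1 for Itih5 and Col1a1, without TKO replicate 2 for Hmox1 and Hoxc13, without Ctrl replicate 2 for Hmox1, and at 5000 UMIs per cell for Hmox1 and Hoxc13. Some of the values rested on a handful of cells. Of the 880 Col1a1 UMIs of TKO replicate 1, 94.3% came from 5 members, of the 525 Hmox1 UMIs of TKO replicate 2, 86.1% did, and of the 419 Meg3 UMIs of TKO replicate 1, 53.2% did. Itih5 rested on 0, 2, 22 and 20 UMIs. Krt7 was more widely spread, with 25.7% and 25.9% of the TKO UMIs in the 5 highest members. Hbb-bt (4.05), a haemoglobin gene, had 2.88, 3.29, 2.18 and 84.9 CPM in G2/M basal cells and 2.40, 129, 1.95 and 99.6 CPM in other basal cells, so single libraries set its value.

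Differences toward a more negative effect were seen for Psrc1 (−2.41), Gas2l3 (−2.01), ENSMUSG00000120092 (−1.97), Rgs3 (−1.75), Sapcd2 (−1.72) and Cdkn2c (−1.69). The call of ENSMUSG00000120092 was lost without Ctrl replicate 1 and without either TKO library, and that of Cdkn2c at 5000 UMIs per cell. Among genes named from the lists they were seen for Racgap1 (−0.86), Kif14 (−0.89), Cenpe (−0.80), Cdkn2d (−0.88), H2ax (−0.73) and Dcn (−0.24), and toward a more positive effect for Mcm3 (0.71) and Rfc1 (0.56). Psrc1, Gas2l3, Sapcd2, Racgap1, Kif14 and Cenpe act in mitosis. The cells were divided by a cutoff on mitotic genes, its part in these differences was not tested, and they are given as values only.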

How the results depend on the processing

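The share of G2/M cells differed by 11.2 percentage points between TKO and Ctrl, and by 8.85 to 13.6 points when 1 library was left out. It was 4.34 points among all cells passing the quality limits and 16.47 points with the 15 other markers. For genes called in G2/M basal cells (1550), the count was 3126 with no expression filter, 738 at 5000 UMIs per cell, and 494 to 1863 when 1 library was left out. For other basal cells (1888) it was 1147 at 5000 UMIs and 713 to 2541 when 1 library was left out. For the difference of effects (256) it was 978 with no expression filter, where 67.1% were more positive against 35.9%, 150 at 5000 UMIs, and 173 to 324 when 1 library was left out. The causes were not tested beyond the numbers of genes, libraries and UMIs that these settings remove. DESeq2 called 1103 raised and 618 lowered genes in G2/M basal cells. Same-numbered libraries did not deviate together (correlation of deviations −0.15 in G2/M and −0.16 in other basal cells), and a fit with the replicate number as a block called 1172 and 1663 genes. A block that crossed the numbers, chosen after seeing the data, called 2253 and 2777. The settings with 10000 UMIs per cell, the 15 other markers, cells of mixed type left out and the crossed block were chosen after seeing the data. At 5000 UMIs per cell the call of Cdkn2c stayed, those of Nusap1, Cenpe, Gpsm2 and Afdn were lost, and the difference of Cdkn2c between cell states was lost.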

Other observations

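Beyond the comparisons, the thin top of the rule sum differed between libraries. Cells above 50 p10k of the 5 genes numbered 1 and 2 in the Ctrl libraries and 0 in both TKO libraries, and the highest sum was 66.2 and 60.1 p10k in Ctrl and 48.1 and 39.9 p10k in TKO. In the 20 to 50 p10k band, Aspm had 245, 193, 107 and 139 CPM and Cenpf 1322, 1110, 804 and 764 CPM, while Ube2c had 966, 1229, 1193 and 1208 CPM. These genes chose and banded the cells, so the values are a description.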
